A study of Danio rerio with 2 samples.

Results

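Genes annotated to signal transduction were described in whole zebrafish embryos (Danio rerio) homozygous mutant for ezh2 and in wild-type (WT) embryos. They were the genes whose eukaryotic orthologous group (KOG) class in the deposited table is signal transduction, less those whose protein annotation holds one of a fixed set of words for other gene groups (caspase, collagen, integrin, complement, interferon and others). The class held 143 of 1287 listed genes, 8 were left out by these words, and 135 remained. By product name they were sorted into 45 kinases, 21 receptors, 3 phosphatases, 14 GTPases and their regulators, and 52 other genes.

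The study compared 1 library of ezh2-/- embryos with 1 library of WT embryos, both of the AB background and 28 hours after fertilization. ezh2 encodes the catalytic subunit of Polycomb repressive complex 2, which methylates histone H3 at silenced genes. The sources used here give neither the mutation nor the number of embryos behind a library. With 1 library per genotype the difference has no replicate check, so no test, p-value or spread between replicates is given for any gene.

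Signal transduction carries information from outside a cell to its interior. Ligands bind receptors, receptors switch on kinases, GTPases and second messengers such as calcium and cyclic nucleotides, and phosphatases, GTPase-activating proteins and inhibitors of the SOCS type switch them off. In the embryo the Notch, Wnt, hedgehog, FGF and BMP routes pattern the body and keep progenitor cells dividing, and Eph receptors and semaphorins guide axons and keep cell groups apart.

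Values are read counts and FPKM, a level per transcript length and library size. Each fold is the ratio of counts on the scale implied by the authors' fold changes (a factor of 1.01 for the mutant library), with a 95% exact interval in brackets that covers counting error only. The table is itself a selection: no gene of the authors' deposited table has a log2 fold change between -1 and 1, or an FDR above 0.00996. Each listed gene therefore differs about 2-fold or more by construction, only its direction and size are open, and the depth of the libraries is unknown. ezh2 was not analysed here, so the targeted gene gives no check of the genotypes.

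Most signal transduction genes were higher in the mutant library. Of the 135, 101 were at least 2-fold higher (74.8%), against 68.1% of the whole table. At least 2-fold lower were 34, against 31.9% of the whole table. At 4-fold, 36 were higher (26.7%, against 22.5% of all listed genes) and 7 lower (5.19%, against 4.58%). These shares lie near those of the whole table and show nothing particular to the class. Higher signal transduction genes had a median log2 fold change of 1.81, against 1.61 for all higher listed genes, and lower ones had -1.29, against -1.32. Setting the median of all listed genes to 0 shifts every log2 fold change by -1.31. Of the 101 higher genes 27 then turn lower, 74 stay higher and each lower gene stays lower. This follows from the construction, since a higher gene turns lower wherever its log2 fold change is smaller than the shift. Staying higher or turning lower is therefore no independent check of a gene, here or below.

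The direction differed in count between the classes. Of the kinases 37 were higher (82.2%) and 8 lower, against 68.1% higher of all listed genes. The GTPases and their regulators had 14 higher and 0 lower. Receptors were nearly even, with 11 higher (52.4%) and 10 lower, and stayed so with receptor kinases and receptor phosphatases added (15 higher and 14 lower of 29). Of the phosphatases 2 were higher (66.7%) and 1 lower. Of the other genes 37 were higher (71.2%) and 15 lower. Both shares lie near that of all listed genes. With the median of all listed genes set to 0, 13 of the higher kinases, 6 of the GTPase regulators, 4 of the receptors, 4 of the other genes and 0 of the phosphatases turned lower. No test of the difference between classes was possible with these libraries. Receptors had a median of 227 counts in the WT library, kinases 99, and GTPases and their regulators 81.5. The part of this level in the counts by class was not tested.

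**Figure D1:**
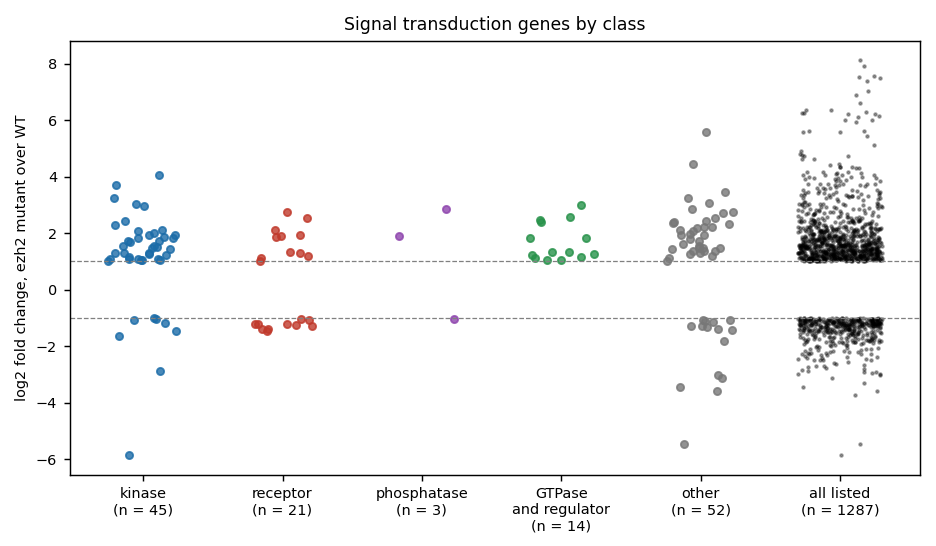
Log2 fold change of the ezh2 mutant over the WT library for each signal transduction gene by class, with all 1287 listed genes at the right; 1 point is 1 gene, horizontal scatter has no meaning, and dashed lines mark 2-fold. All 14 GTPase regulators lie above 0 and the 21 receptors lie on both sides; 6 of the GTPase regulators and 4 of the receptors turn lower with the median of all listed genes set to 0.

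Direction also went with the level of a gene. The higher genes had a median of 181 counts in the mutant library and 56 in the WT library. For the lower genes these medians were 214.5 in the mutant library and 521 in the WT library. Among the 26 genes with a mean count of at least 500, 12 were higher (46.2%, against 47.1% of all listed genes at that level). Under 500 counts 89 of 109 were higher (81.7%, against 74.8%). Of the 19 genes with at least 10 FPKM in the WT library 2 were higher, and of the 55 under 1 FPKM 54 were higher. The same holds for the table as a whole, where 69 of 279 and 390 of 397 genes were higher at those levels. Ranking by the WT level favours this pattern, since that level is also the denominator of the fold.

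The most abundant signal transduction gene, by its mean over both libraries, was nr2f1a, an orphan nuclear receptor gene of the nervous system, with 26.2 FPKM in the mutant library and 59.3 FPKM in the WT library. It was followed by the Notch receptor genes notch3 and notch1a and by sfrp1a, all lower in the mutant library. map2k1, pik3r3a, cdkn1a and socs3b were the higher genes among the 10 most abundant, and pik3r3a turned lower with the median of all listed genes set to 0. cdkn1a, which encodes the cell cycle inhibitor p21, had 35.3 FPKM in the mutant library, the highest value of the class there, and 1.54 FPKM in the WT library.

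**Figure D2:**
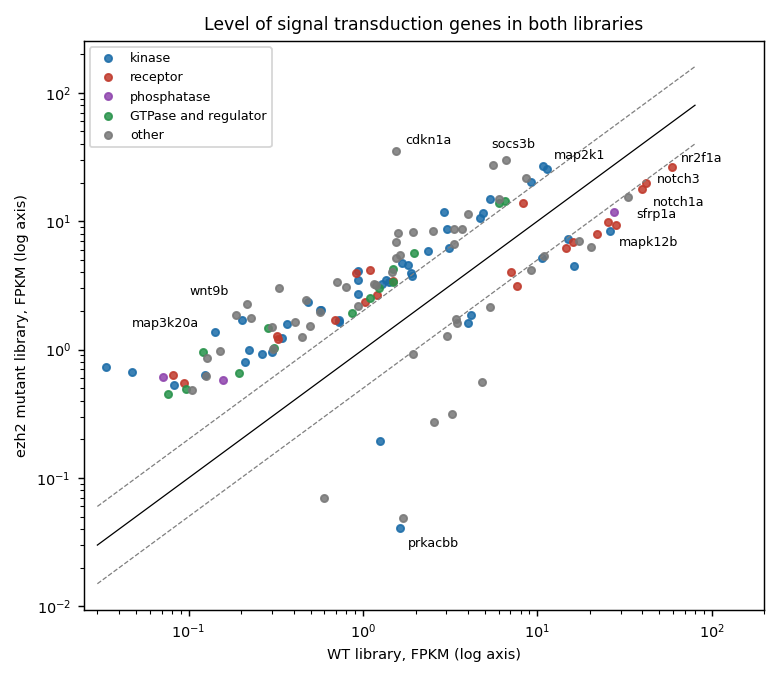
FPKM of each signal transduction gene in the ezh2 mutant library (vertical, log axis) against the WT library (horizontal, log axis); 1 point is 1 gene, the solid line marks equal levels and dashed lines 2-fold. The gene with 0 WT counts is not drawn, and most genes above 10 FPKM in the WT library lie under the solid line while nearly all of those under 1 FPKM lie above it.

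All 3 listed Notch receptor genes were lower in the mutant library, against 31.9% of all listed genes. Each had at least 10 FPKM in the WT library, where 69 of 279 listed genes were higher. Notch receptors are cut after binding a ligand on a neighbouring cell, and their inner part enters the nucleus. notch3 had 4029 counts (19.9 FPKM) in the mutant library and 8582 counts (42.1 FPKM) in the WT library, 2.11-fold lower (2.03 to 2.19). notch1a had 3354 counts in the mutant library and 6969 in the WT library, 2.06-fold lower (1.97 to 2.14). notch1b had 1530 counts in the mutant library and 3621 in the WT library, 2.34-fold lower (2.21 to 2.49). These are among the best counted genes of the class, and their sum was 2.13-fold lower (2.08 to 2.18), with 8913 counts in the mutant library and 19172 in the WT library. A pair of feedback regulators of Notch, not in the class, went the same way: nrarpa had 135 counts in the mutant library and 763 in the WT library (5.60-fold lower, 4.65 to 6.77), and nrarpb had 1158 counts in the mutant library and 3213 in the WT library (2.75-fold lower, 2.57 to 2.94).

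Genes marking neural progenitors were also lower where listed, against 31.9% of all listed genes. Of 8 such markers 6 were listed (dla, dld, her4.2, her4.3, notch1a and sox3), 6 were lower and none was at 0 counts; without notch1a they summed to 139.5 FPKM in the mutant library and 361 FPKM in the WT library. All 9 listed erythroid loci were lower, with summed levels of 2558 FPKM in the mutant library and 10764 FPKM in the WT library. Of 7 glia and eye markers 5 were listed and lower, summing to 27.5 FPKM in the mutant library and 94.5 FPKM in the WT library, and elavl3 (neurons) and lyz (leukocytes) were the lower genes listed of their marker sets, of 5 and 7 genes. The share of 31.9% lower over all listed genes stands beside each of these marker sets. Of listed genes with at least 10 FPKM in the WT library only 69 of 279 were higher. None of the muscle, epidermis or endothelium markers was listed. The part of these cell types in the result was not tested. In whole embryos fewer cells of a type and less RNA per cell cannot be told apart.

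Nuclear receptors are transcription factors that mostly bind small lipophilic ligands. Of 5 in the class 2 were higher and 3 lower, and of all listed genes 68.1% were higher. The orphan receptors of the NR2 family were lower. nr2f1a had 1379 counts in the mutant library and 3218 in the WT library (2.31-fold lower, 2.17 to 2.46). nr2f1b had 562 counts in the mutant library and 1497 in the WT library (2.64-fold lower, 2.39 to 2.91). nr2e1, a regulator of neural stem cells in mammals, had 337 counts in the mutant library and 825 in the WT library (2.42-fold lower, 2.13 to 2.76). These 3 genes stood at 6.85 to 26.2 FPKM in the mutant library and 16.1 to 59.3 FPKM in the WT library. Higher were nr6a1a, the germ cell nuclear factor gene, with 215 counts in the mutant library and 56 in the WT library (3.88-fold, 2.88 to 5.30), and ppara, a fatty acid sensor. ppara had 179 counts in the mutant library and 74 in the WT library (2.44-fold, 1.85 to 3.25) and turned lower with the median of all listed genes set to 0.

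Receptors of cell contact and axon guidance went both ways. A pair of loci named celsr2, atypical cadherin receptors of planar cell polarity, summed to 1462 counts in the mutant library and 3502 in the WT library, 2.37-fold lower (2.23 to 2.52). They share a product name, and reads of one may have been counted for the other. A latrophilin-2 locus, another adhesion receptor, had 69 counts in the mutant library and 182 in the WT library. It was 2.61-fold lower (1.97 to 3.50) in counts and 1.75-fold lower in FPKM. robo4, of the Roundabout family of Slit receptors, had 795 counts in the mutant library and 2204 in the WT library, 2.74-fold lower (2.53 to 2.98). It had the largest lower fold among the 21 genes sorted as receptors.

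Other receptors of cell contact, and a lipoprotein receptor, were higher. The adhesion receptor genes adgrg2a (86 counts in the mutant library, 23 in the WT library), an adgrg2-like locus (43 counts in the mutant library and 7 in the WT library) and adgre5b.3 (181 mutant and 42 WT counts) were between 3.78-fold and 6.20-fold higher. unc5b, a netrin receptor gene, had 353 counts in the mutant library and 154 in the WT library (2.32-fold higher, 1.91 to 2.82) and turned lower with the median of all listed genes set to 0. ldlrb, a lipoprotein receptor gene, was 2.03-fold higher (1.83 to 2.26), with 1087 counts in the mutant library and 540 in the WT library, and turned lower on that scale too. In FPKM ldlrb was 1.69-fold higher.

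All 3 listed IP3 receptor genes were higher in the mutant library, against 68.1% of all listed genes. Of the 3, itpr3 turned lower with the median of all listed genes set to 0. itpr1b and itpr2 lay under 1 FPKM in the WT library (0.325 and 0.686 FPKM), where 390 of 397 listed genes were higher. IP3 receptors release calcium from the endoplasmic reticulum when phospholipase C has made inositol trisphosphate. itpr1b had 242 counts in the mutant library and 67 in the WT library (3.65-fold higher, 2.77 to 4.86). itpr2 had 243 counts in the mutant library and 98 in the WT library (2.50-fold, 1.97 to 3.2), and itpr3 had 490 mutant and 227 WT counts (2.18-fold, 1.86 to 2.56). itpr3 had the highest level and the smallest fold of the 3, and their sum was 2.51-fold higher (2.23 to 2.83). glra1, a subunit of the glycine-gated chloride channel, had 36 counts in the mutant library and 5 in the WT library (7.27-fold, 2.84 to 23.7).

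Of the 6 receptor kinases 3 were higher and 3 lower, and of all listed genes 68.1% were higher. The neuregulin receptor genes erbb2 and erbb3a, whose products pair with each other, were both higher, and both turned lower with the median of all listed genes set to 0. erbb3a had 597 counts in the mutant library and 246 in the WT library (2.45-fold, 2.11 to 2.86), and erbb2 had 324 mutant and 138 WT counts (2.37-fold, 1.94 to 2.92). mst1r, the receptor gene for macrophage-stimulating protein, had 212 counts in the mutant library and 64 in the WT library (3.35-fold higher, 2.52 to 4.50). The Eph receptor genes, which act in cell repulsion, were lower: ephb3a had 707 counts in the mutant library and 1446 in the WT library (2.02-fold, 1.85 to 2.22), and epha4 had 212 mutant and 481 WT counts (2.25-fold, 1.91 to 2.65). bmpr1ba, a type I BMP receptor gene, had 217 counts in the mutant library and 453 in the WT library (2.07-fold lower, 1.75 to 2.44).

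All 4 Wnt ligand genes of the class were higher in the mutant library, against 68.1% of all listed genes. A Wnt antagonist was lower. wnt9b had 92 counts in the mutant library and 8 in the WT library (11.6-fold, 5.65 to 27.7). wnt10a had 36 counts in the mutant library and 5 in the WT library (7.27-fold, 2.84 to 23.7). wnt3a, the best counted of the 4, had 409 counts in the mutant library and 161 in the WT library (2.57-fold, 2.13 to 3.1). With a wnt7a-like locus (47 counts in the mutant library, 12 in the WT library) the ligands summed to 584 counts in the mutant library and 186 in the WT library, 3.17-fold higher (2.68 to 3.76). Every ligand gene stayed higher with the median of all listed genes set to 0, wnt3a by little (log2 fold change 1.357 against a shift of -1.306). sfrp1a, which encodes a secreted protein that binds Wnt ligands, had 866 counts in the mutant library and 2194 in the WT library, 2.51-fold lower (2.32 to 2.72). At 15.6 FPKM in the mutant library and 32.9 FPKM in the WT library it stood above each Wnt ligand gene in both libraries. The ligand genes other than wnt3a lay under 1 FPKM in the WT library, where 390 of 397 listed genes were higher. Of listed genes with at least 10 FPKM there, as for sfrp1a, 69 of 279 were higher. wnt3a, at 1.16 FPKM in the WT library, falls in neither range. The part of the level in these directions was not tested.

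In the hedgehog route a ligand and its release factor went opposite ways. ihha, the Indian hedgehog gene, had 236 counts in the mutant library and 108 in the WT library (2.21-fold higher, 1.75 to 2.80) and turned lower with the median of all listed genes set to 0. scube2, whose product helps release hedgehog ligands in zebrafish, had 588 counts in the mutant library and 1465 in the WT library (2.47-fold lower, 2.24 to 2.72). Among growth factors, fgf1a had 49 counts in the mutant library and 8 in the WT library (6.19-fold higher, 2.91 to 15.13), and fgf2 had 157 mutant and 41 WT counts (3.87-fold higher, 2.73 to 5.60). egf went the other way, with 85 counts in the mutant library and 192 in the WT library (2.24-fold lower, 1.72 to 2.92).

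A Nudix hydrolase gene of the class, nudt6, lies beside fgf2, with 0 protein-coding genes between them in the RefSeq table of assembly GRCz12tu, and was 5.05-fold higher (3.50 to 7.48), with 175 counts in the mutant library and 35 in the WT library. The library kit does not mark strand, so reads from overlapping genes on opposite strands cannot be told apart. Whether fgf2 and nudt6 overlap was not examined here. Semaphorins, which attract or repel axons, were mixed. sema5bb had 196 counts in the mutant library and 480 in the WT library (2.42-fold lower, 2.05 to 2.88). sema4ga had 39 counts in the mutant library and 8 in the WT library (4.92-fold higher, 2.27 to 12.2), and sema4ba 180 mutant and 79 WT counts (2.30-fold higher, 1.76 to 3.04), the last turning lower with the median of all listed genes set to 0.

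**Figure D3:**
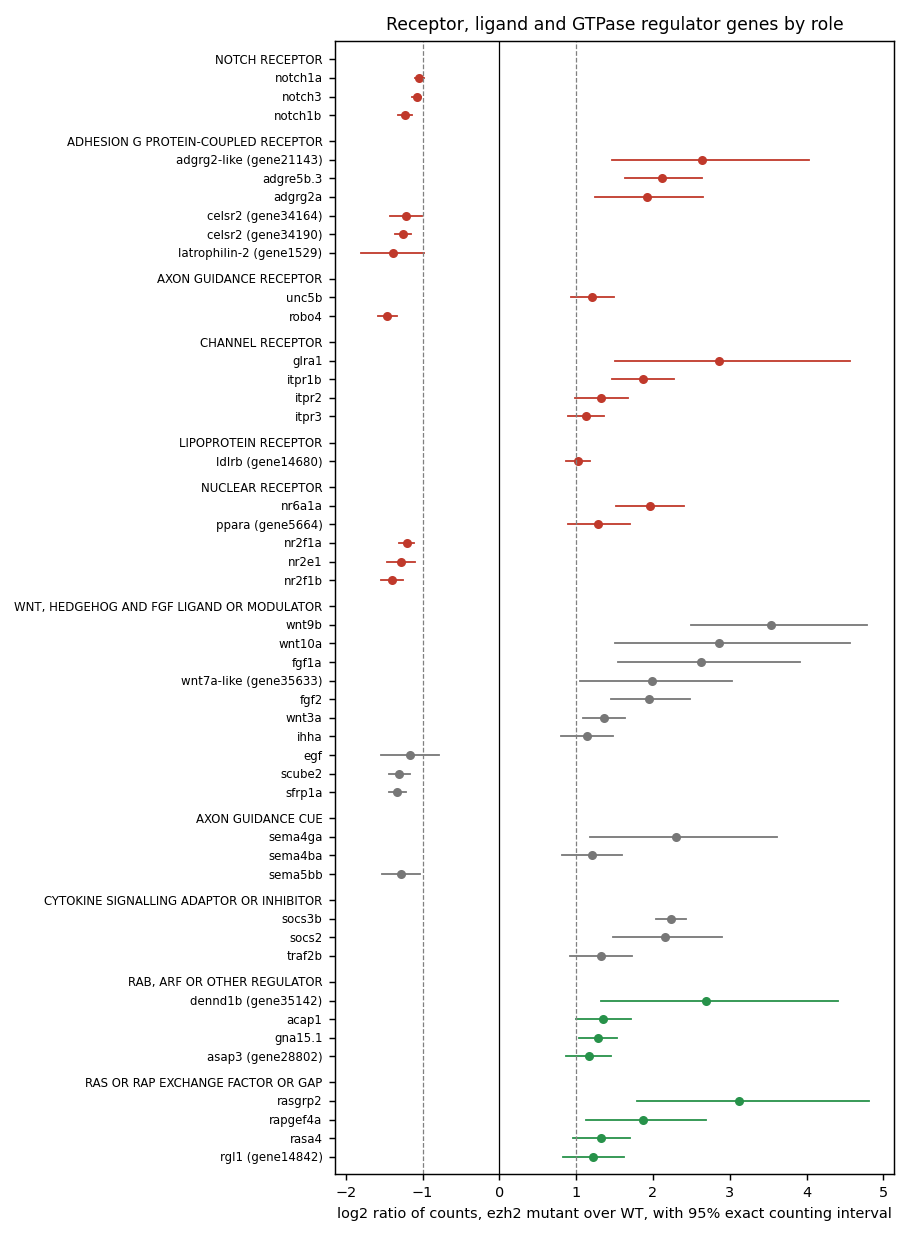
Log2 ratio of counts of the ezh2 mutant over the WT library, with 95% exact counting intervals, for receptors (red), ligands, guidance cues and cytokine regulators (grey) and some of the GTPase regulators (green) by role; dashed lines mark 2-fold. Notch receptors lie left of 0 with narrow intervals, while the Wnt ligand genes and the GTPase regulators drawn lie right of 0; gna15.1, asap3 and rgl1 turn lower with the median of all listed genes set to 0.

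Kinases of the MAP kinase cascade were mostly higher in the mutant library, 7 of 8, against 68.1% of all listed genes. Of these 7, mknk2a, map3k5 and mapk12a turned lower with the median of all listed genes set to 0. map3k20a, map3k2 and a map3k11-like locus lay under 1 FPKM in the WT library, where 390 of 397 listed genes were higher. The cascade runs from MAP3K through MAP2K to MAPK. map3k20a, whose product ZAK senses stalled ribosomes, had 183 counts in the mutant library and 19 in the WT library (9.73-fold, 6.05 to 16.5). map3k2 had 50 counts in the mutant library and 9 in the WT library (5.61-fold, 2.73 to 13). The other MAP3K genes were a map3k11-like locus, with 85 counts in the mutant library and 23 in the WT library, and map3k5, the stress kinase ASK1, with 394 mutant and 187 WT counts. One level down, map2k1, which encodes MEK1, had 1048 counts (26.8 FPKM) in the mutant library and 425 counts (10.7 FPKM) in the WT library, 2.49-fold higher (2.22 to 2.79).

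At the last level a pair of paralogues went opposite ways on the authors' scale. mapk12a and mapk12b both encode p38 gamma. mapk12a had 709 counts (20.1 FPKM) in the mutant library and 342 counts (9.2 FPKM) in the WT library, 2.09-fold higher (1.84 to 2.39). mapk12b had 229 counts (8.35 FPKM) in the mutant library and 722 counts (26.1 FPKM) in the WT library, 3.12-fold lower (2.69 to 3.64). In FPKM mapk12a stood above mapk12b in the mutant library and below it in the WT library. mknk2a, whose product phosphorylates a translation initiation factor, had 363 counts in the mutant library and 150 in the WT library (2.44-fold higher, 2.02 to 2.98).

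Pim kinases are a family of small serine/threonine kinases with many copies in zebrafish. Of 7 loci sorted as Pim-like kinases, 6 were higher and 1 was lower, against 68.1% higher of all listed genes. The 6 include loci that carry no Pim name: aurora kinase-like (gene28060), probable serine/threonine kinase (gene26995) and ppk6-like (gene26327). Of the 6, only ppk6-like had at least 1 FPKM in the WT library. Of all listed genes under that level 390 of 397 were higher. The 6 Pim-like loci summed to 622 counts in the mutant library and 132 in the WT library, 4.76-fold higher (3.94 to 5.79). Most of that came from 1 locus, named ppk6-like (gene26327), with 412 counts in the mutant library and 99 in the WT library (4.2-fold, 3.37 to 5.29). The other 5 had 24 to 84 counts in the mutant library and 1 to 22 in the WT library. The lower locus (gene1905) had 4 counts in the mutant library and 33 in the WT library, 8.17-fold lower (2.91 to 31.7). The copies resemble each other, so how reads were divided between them is uncertain.

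The gene with the largest lower fold of the class was prkacbb, a catalytic subunit gene of the cyclic AMP-dependent kinase PKA. It had 2 counts (0.0404 FPKM) in the mutant library and 145 counts (1.64 FPKM) in the WT library, 71.8-fold lower (19.5 to 598). Next was a phosphodiesterase pde9a-like locus, of the enzymes that break down cyclic GMP, with 1 count in the mutant library and 67 in the WT library (66.3-fold lower, 11.5 to 2659). Both values rest on 1 or 2 counts in the mutant library. With 0.1 added to each FPKM value the log2 fold change of prkacbb was -3.63, against -5.85 from counts, and that of the pde9a-like locus -3.60, against -5.48.

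Protein kinase C genes split: prkcq, the theta form, had 132 counts in the mutant library and 368 in the WT library (2.76-fold lower, 2.26 to 3.39). prkcaa, the alpha form, had 890 counts in the mutant library and 448 in the WT library (2.01-fold higher, 1.79 to 2.25) and turned lower with the median of all listed genes set to 0. The calcium/calmodulin kinase genes camk1b (192 counts in the mutant library, 68 in the WT library) and camk1gb (80 mutant and 24 WT counts) were 2.85-fold (2.15 to 3.82) and 3.37-fold (2.11 to 5.56) higher. A dapk2-like locus, of the death-associated kinases, had 245 counts in the mutant library and 64 in the WT library (3.87-fold higher, 2.93 to 5.17). A myosin light chain kinase locus was 2.92-fold higher, and prkg1, the cyclic GMP-dependent kinase gene, 2.25-fold higher; prkg1 turned lower with the median of all listed genes set to 0. Calcium sensors of the class were higher too: tesca had 182 counts in the mutant library and 60 in the WT library (3.06-fold, 2.28 to 4.17), a guca1a-like locus 85 mutant and 29 WT counts, a calcium-binding protein 8-like locus 35 mutant and 5 WT counts, and hpcal1 253 mutant and 106 WT counts, the last turning lower on that scale.

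The 4 tyrosine kinase genes sorted outside the receptor kinases were all higher, against 68.1% of all listed genes. Of the 4, frk and tnk2b turned lower with the median of all listed genes set to 0. styk1b had 623 counts in the mutant library and 234 in the WT library (2.69-fold, 2.31 to 3.14), and its paralogue styk1a had 101 mutant and 31 WT counts (3.29-fold, 2.18 to 5.09). Of the lipid and inositol kinases, pip5k1c, which makes the phospholipase C substrate, had 53 counts in the mutant library and 12 in the WT library (4.46-fold higher, 2.35 to 9.17). pik3r3a, a regulatory subunit gene of PI3K, had 968 counts in the mutant library and 465 in the WT library (2.1-fold higher, 1.88 to 2.35), and ippk was 2.14-fold higher; both turned lower on that scale. pik3c2b, a class II PI3K gene, had 679 counts in the mutant library and 1435 in the WT library (2.09-fold lower, 1.91 to 2.30).

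The remaining 8 kinases were all higher, against 68.1% of all listed genes. Of the 8, MRCK alpha and ripk4 turned lower with the median of all listed genes set to 0. Only vrk2 and ripk4 had at least 1 FPKM in the WT library. Of all listed genes under that level 390 of 397 were higher. nim1ka had 60 counts in the mutant library and 12 in the WT library (5.05-fold, 2.69 to 10.3). ankk1 had 122 counts in the mutant library and 30 in the WT library (4.11-fold, 2.74 to 6.35), and vrk2 had 334 mutant and 116 WT counts (2.91-fold, 2.35 to 3.62). ern2, a paralogue of the unfolded protein sensor IRE1, had 82 counts in the mutant library and 23 in the WT library (3.60-fold, 2.24 to 5.99), and grk5, whose product switches off G protein-coupled receptors, had 132 mutant and 48 WT counts (2.78-fold, 1.98 to 3.95). A locus named after the plant kinase CIPK25 was 3.64-fold higher.

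**Figure D4:**
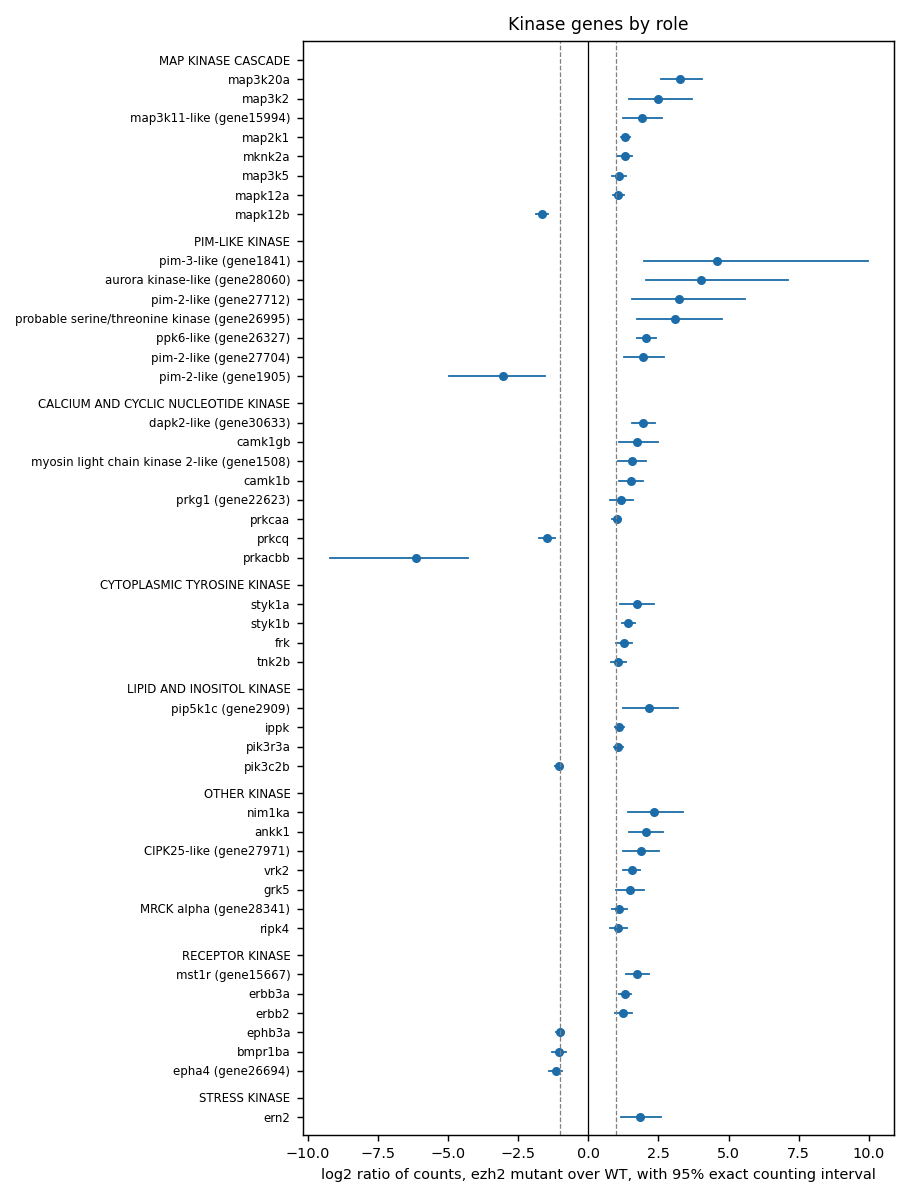
Log2 ratio of counts of the ezh2 mutant over the WT library for the 45 kinase genes by role, with 95% exact counting intervals; dashed lines mark 2-fold. On this scale 37 points lie right of 0, 13 of which turn lower with the median of all listed genes set to 0. mapk12b lies left of 0 and mapk12a right of it, and prkacbb is farthest left with a wide interval. The group labelled cytoplasmic tyrosine kinase holds the 4 tyrosine kinases sorted outside the receptor kinases.

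The phosphatases were 3 genes. ptprq, a receptor phosphatase gene known from inner ear hair cells, had 74 counts in the mutant library and 10 in the WT library (7.47-fold higher, 3.84 to 16.2). phlpp2, whose product removes a phosphate from Akt, had 57 counts in the mutant library and 15 in the WT library (3.84-fold higher, 2.14 to 7.30). ptprna is a gene of secretory granules, sorted here by its receptor-type phosphatase name alone. It had 640 counts (11.7 FPKM) in the mutant library and 1341 counts (27.3 FPKM) in the WT library, 2.07-fold lower (1.89 to 2.28). ptprna had more counts than ptprq and phlpp2 in both libraries.

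GTPases are loaded with GTP by exchange factors and switched off by activating proteins. All 14 genes of this kind in the signal transduction class were higher in the mutant library, against 68.1% of all listed genes. With the median of all listed genes set to 0, 8 stayed higher and 6 turned lower, gna15.1, asap3 and rgl1 among them. Of the 14, only 7 had at least 1 FPKM in the WT library. Of all listed genes under that level 390 of 397 were higher. Of the Ras and Rap regulators, rasgrp2, a calcium-activated Rap exchange factor gene, had 43 counts in the mutant library and 5 in the WT library (8.69-fold, 3.45 to 28.1). rapgef4a, the cyclic AMP-activated exchange factor Epac2, had 69 counts in the mutant library and 19 in the WT library (3.67-fold, 2.18 to 6.46), and the Ras-inactivating gene rasa4 had 213 mutant and 86 WT counts (2.50-fold, 1.94 to 3.25). rapgef4a lies beside map3k20a with 0 protein-coding genes between them in the RefSeq table. Whether this pair overlaps was not examined either, so the limit on strand given for fgf2 and nudt6 may apply to it.

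Of the regulators of other GTPases, dennd1b, a Rab exchange factor gene, had 32 counts in the mutant library and 5 in the WT library (6.46-fold, 2.50 to 21.3), and gna15.1, a Gq-class G protein subunit gene, 471 mutant and 196 WT counts (2.43-fold, 2.05 to 2.88). The Arf-inactivating genes acap1 and asap3 were 2.56-fold and 2.24-fold higher, and rgl1, an exchange factor gene for the Ras-like protein Ral, was 2.33-fold higher.

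Feedback inhibitors of cytokine receptors were higher. socs3b, which blocks signalling by JAK kinases, had 1232 counts (29.9 FPKM) in the mutant library and 265 counts (6.57 FPKM) in the WT library, 4.70-fold higher (4.11 to 5.38). socs2 had 97 counts in the mutant library and 22 in the WT library (4.45-fold, 2.78 to 7.43). traf2b, an adaptor gene of TNF receptors, had 183 counts in the mutant library and 74 in the WT library (2.50-fold, 1.90 to 3.32). Each stayed higher with the median of all listed genes set to 0, traf2b only just (log2 fold change 1.315 against a shift of -1.306). Outside the class, the cytokine receptor subunit gene il6st had 1515 counts in the mutant library and 431 in the WT library (3.55-fold higher, 3.19 to 3.96).

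Other genes of the class are joined to signal transduction by annotation rather than by a shared route. cdkn1a had 1337 counts in the mutant library and 61 in the WT library, 22.1-fold higher (17.1 to 29.1), the largest higher fold of the class among genes that reach 50 counts in each library. egln3, an oxygen-sensing prolyl hydroxylase gene, had 154 counts in the mutant library and 552 in the WT library (3.55-fold lower, 2.96 to 4.27). vaspa, an actin regulator gene, had 3 counts in the mutant library and 30 in the WT library (9.90-fold lower, 3.08 to 50.7), and a dmp1-like locus had 5 mutant and 45 WT counts (8.91-fold lower, 3.55 to 28.8). Of 16 genes with no role group, 9 were higher (56.25%, against 68.1% of all listed genes) and 7 lower. The higher ones included plbd1 (886 counts in the mutant library, 329 in the WT library) and malectin (338 mutant and 97 WT counts). The lower ones included mpp3-like (182 mutant and 490 WT counts) and frrs1l (103 mutant and 272 WT counts). Lower too were pdgfrl (120 mutant and 265 WT counts) and dgcr2 (160 mutant and 343 WT counts).

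Among 9 matrix and adhesion genes 6 were higher (66.7%, near the 68.1% of all listed genes) and 3 lower. A pair of igdcc3-like loci, of the DCC family of immunoglobulin receptors, summed to 28 counts in the mutant library and 346 in the WT library, 12.2-fold lower (8.32 to 18.7). prtga, of the same family, went the other way with 39 counts in the mutant library and 7 in the WT library (5.63-fold higher, 2.49 to 14.9). ncam1b, a neural adhesion gene, had 577 counts in the mutant library and 1218 in the WT library (2.09-fold lower, 1.89 to 2.31). The higher ones included the giant cadherin gene fat2, with 591 counts in the mutant library and 181 in the WT library (3.30-fold, 2.79 to 3.92), and a fibrillin-3, a nephronectin-like and a tnfaip6 locus at 2.63-fold to 2.77-fold; a fibrillin-2 locus, 2.03-fold higher, turned lower with the median of all listed genes set to 0.

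All 6 loci sorted as uncharacterised were at least 4-fold higher. By protein similarity, however, gene20296 matches an epidermal growth factor-like protein and gene5539 matches plexin-A4, of the semaphorin receptors. Of all listed genes 22.5% were at least 4-fold higher, and the 6 loci had a median of only 11.5 counts in the WT library. One of them, gene16207, had 23 counts in the mutant library and 0 in the WT library, at least 7.74-fold higher if 3 counts are taken as the floor of the WT library, a bound that leaves out the counting error of the mutant library; the exact interval with both errors begins at 5.81-fold. gene20296 reached 27.5 FPKM from 109 counts in the mutant library, and 5.59 FPKM from 21 counts in the WT library.

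The ratio of FPKM had the same direction as the ratio of counts in 135 of 135 genes. Of 78 genes that reach 50 counts in each library, 1 had an FPKM ratio more than 1.5-fold away from its count ratio (1.28%, against 0.848% of 825 listed genes). That gene was bmpr1ba, with 4.48 FPKM in the mutant library and 16.3 FPKM in the WT library, 3.63-fold lower in FPKM and 2.07-fold lower in counts.

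**Figure D5:**
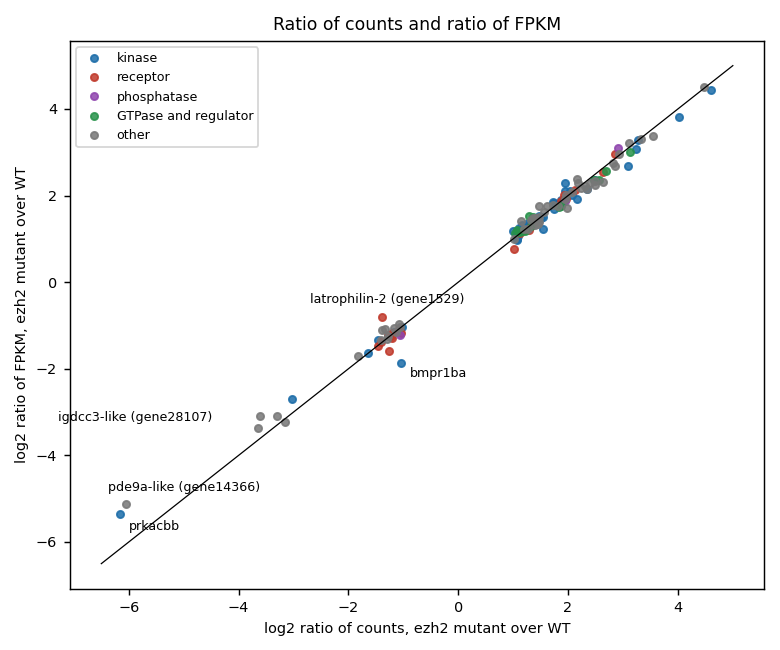
Log2 ratio of FPKM (vertical) against log2 ratio of counts (horizontal), both of the ezh2 mutant over the WT library, for each signal transduction gene with WT counts above 0; 1 point is 1 gene and the line marks equality. Points lie along the line, with bmpr1ba under it and prkacbb and the pde9a-like locus, which have 1 or 2 mutant counts, above it.

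Beside the KOG class, 124 of the 135 genes (91.9%) also carry the signal transduction class of eggNOG, a second orthology resource, against 217 of all 1287 listed genes (16.9%). The gene ontology term ATP binding was given to 32 of them, 24 higher and 8 lower, against 51 higher and 13 lower of 64 over all listed genes. Calcium ion binding was given to 16, 9 higher and 7 lower, against 36 higher and 16 lower of 52. All 3 genes given the Notch pathway term were lower, against 13 of 14 over all listed genes, and 6 of the 7 given the Wnt pathway term were higher, against 9 of 13. These terms overlap with the roles by which the genes were described, and are no independent count.

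Lists of pathway genes, 15 lists with 702 genes, give the wider setting. In all 48 of their genes were listed, 34 higher and 14 lower, 29 of them in the class. The higher share, 70.8%, lies near the 68.1% of all listed genes, and the single lists below hold few genes each. Genes were matched to the lists by symbol alone, so genes of a route with no matching symbol are not counted. Of 22 Notch receptors and modifiers 5 were listed and lower. Of 52 calcium genes 8 were listed, 7 higher and 1 lower, among them rcan1a, the calcineurin inhibitor gene, with 1460 counts in the mutant library and 596 in the WT library. Of 39 JAK, SOCS and cytokine receptor genes 5 were listed and higher, with ghra and il13ra1 beside the genes named above. With the median of all listed genes set to 0, itpr3 and prkcaa turned lower in the calcium list and rcan1a, which has the median value of all listed genes, lay at 0.

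The list of Ras-like GTPase genes overlaps with the regulators of the class. Of 64 Ras-like GTPases and regulators 5 were listed and higher, against 68.1% of all listed genes. Of these, rasgrp2 and rapgef4a are genes of the class described above. Outside the class were rasl11b (414 counts in the mutant library, 103 in the WT library) and rrad (162 mutant and 37 WT counts). With them was rergla (36 mutant counts), which rests on 1 WT count. Of 46 PI3K, AKT and mTOR genes 3 were listed and higher: foxo3b (2193 counts in the mutant library, 678 in the WT library), foxo1a (134 mutant and 30 WT counts) and pik3r3a. Of these, pik3r3a turned lower with the median of all listed genes set to 0. The PI3K gene pik3c2b, described above as lower, was not matched to this list.

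Other routes had few listed genes, and beside each count stand 68.1% higher and 31.9% lower of all listed genes. Of 20 hedgehog genes 4 were listed, 1 higher and 3 lower, the lower ones being scube2, the transcription factor gene gli2b (687 counts in the mutant library, 1445 in the WT library) and the co-receptor gene gas1b (530 mutant and 1256 WT counts). Of 53 cyclic AMP genes 2 were listed, prkacbb and, 3.37-fold higher (2.94 to 3.88), the repressor gene crema with 905 counts in the mutant library and 271 in the WT library. Of 66 Wnt genes 3 were listed (wnt3a and wnt10a higher, sfrp1a lower), and of 59 receptor tyrosine kinase and MAPK feedback genes 3 (map2k1, erbb2 and erbb3a, all higher, both receptor genes turning lower with the median of all listed genes set to 0). Of 45 chemokine, purinergic and related receptor genes 3 were listed: p2ry6 and lpar3 were higher, lpar3 turning lower on that scale, and s1pr1 was lower. Of 31 Eph, 45 TGF-beta and BMP, and 54 G protein genes 1 each was listed. Here ephb3a and bmpr1ba were lower, and gna15.1 was higher but lower on that scale. Of 18 cyclic GMP genes 0 were matched. Genes of the class not matched to these lists by symbol include epha4, prkg1, wnt9b, the wnt7a-like locus and the pde9a-like locus. Genes of these lists outside the table were not analysed here.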

How the data were processed

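RNA of whole embryos was measured in 2 libraries, 1 per genotype. Per the labels' protocols, poly(A) RNA was made into libraries with a NEBNext Ultra kit, which does not mark strand. Genome build GRCz10, Bowtie 0.12.2 and Cufflinks are named in the submitters' processing notes, without their roles; neither the counting tool nor the authors' test is given in the sources used here. Per the file headers, the deposited table holds raw read counts and FPKM values of both libraries, with the authors' FDR (an adjusted p-value) and log2 fold change (mutant over WT). The FDR compares 2 libraries, not genotypes, and reaches 0.00937 among the genes described in the authors' deposited table.

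The members and gene lists were chosen with earlier results of these data known. Genes annotated to several KOG classes carry no KOG annotation text in the table and are not members. Classes and roles were assigned by reading product names after the table was opened; keywords alone gave the same class for 122 of 135. Symbols came from the zebrafish KEGG hit in the table (76 genes, 75 matched in RefSeq GRCz12tu, used for names and neighbours alone) or from the product name. The log2 fold change was log2((mutant count + 0.5)/(WT count + 0.5)) plus 0.0144, the median offset to the authors' log2 fold changes over the 391 genes that reach 200 counts in each library. Folds are ratios of counts on that scale with 95% exact (Clopper-Pearson) intervals; PCR reads carry no molecular identifiers and are not independent, so intervals and the floor of 3 counts cover counting error only. The steps were tested on simulated data.

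The rule for named genes took, per class, up to 8 members highest and 8 lowest with at least 20 counts in one library, the 10 with the highest mean FPKM, list members, members with 0 counts and members sharing a name. It names 79 members; the other 56, where named, were chosen after their values were seen. Python 3.11.15, numpy 2.4.6, pandas 2.3.3, scipy 1.17.1 and matplotlib 3.10.9 were used. The alternatives covered the scale, pseudocount, unit, count minimum, word filter and class assignment. One group of GTPase regulators and its gene list are not reported here.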

Additional observations from a re-analysis of the deposited data

How the results depend on the processing

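No paired analysis was possible because each genotype has 1 library, and for the same reason no replicate could be left out. The raw ratio of counts moved none of the 135 genes' log2 fold changes beyond its counting interval, 5 added counts moved 1, 0.1 added FPKM 10 and 1 added FPKM 100. With the median of all listed genes set to 0, a shift chosen on genes selected as different, 26 genes were at least 2-fold higher, 5 at least 4-fold higher and 34 at least 4-fold lower, and the median became 0.078 (log2); 6 kinases, 2 receptors, 1 phosphatase and 4 GTPase regulators were then at least 2-fold higher. With 1 FPKM added, 44 genes passed 2-fold upward and 21 downward, 3 passed 4-fold upward and 0 downward, and the median was 0.76; 15 kinases were higher and 3 lower, and 2 receptors, 0 phosphatases and 4 GTPase regulators were higher. At 4-fold, 23 genes were higher with 5 counts added, and 20 were higher and 3 lower among those with at least 50 counts in one library. By keywords alone 5 kinases were lower.

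Under median centring 27 genes reversed, with these log2 fold changes: gna15.1 -0.029, asap3 -0.15, rgl1 -0.088, a further 3 GTPase regulators -0.19, -0.24 and -0.27, mknk2a -0.020, map3k5 -0.22, mapk12a -0.24, prkg1 -0.14, prkcaa -0.30, frk -0.041, tnk2b -0.24, ippk -0.21, pik3r3a -0.23, MRCK alpha -0.20, ripk4 -0.24, erbb3a -0.015, erbb2 -0.064, ihha -0.17, sema4ba -0.11, fibrillin-2 -0.28, hpcal1 -0.041, unc5b -0.10, itpr3 -0.18, ldlrb -0.28 and ppara -0.023. They follow from the construction, since each lies under the shift. Depth limits the genes with few counts in one library, such as prkacbb, the pde9a-like locus and most Pim-like loci.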
